A study of Mus musculus with 2 samples.

Results

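Gucy2e, Gucy2f, Guca1a and Guca1b encode the guanylate cyclases of photoreceptors and the calcium sensors that activate them. These 4 genes, of 32285 in the matrices, were taken by their symbols, and their transcripts were followed in rods and cones chosen by the unique molecular identifiers (UMIs) of 7 rod and 8 cone marker genes, none of them one of the 4. The rods numbered 13086 under short-wavelength light and 4923 under white light, and the cones numbered 378 and 129. Mouse retina was dissociated and sequenced as single cells from 2 groups, 1 kept under short-wavelength light and 1 under full-spectrum white light for 2 weeks from postnatal day 14. Both groups are described as mice with no genotype, strain, sex or number of animals stated, and no exposure intensity is given. There was 1 library per light condition and hence no replicate, so no p-value can be given for light. Every interval below is a 95% interval that covers counting error only, and single cells were not treated as replicates.

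In the dark, photoreceptors hold cyclic GMP high, and this nucleotide keeps cation channels of the outer segment open. Light lowers cyclic GMP through phosphodiesterase, the channels close, and intracellular calcium falls. The calcium sensors then switch to a form that stimulates the membrane guanylate cyclases, which restores cyclic GMP and lets the cell recover. Gucy2e encodes the cyclase GC-E and Gucy2f its relative GC-F, both membrane proteins of photoreceptor outer segments. Guca1a encodes the activating protein GCAP1 and Guca1b encodes GCAP2.

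In the mm10 annotation, Gucy2e (ENSMUSG00000020890) lies on chromosome 11 from 69218117 to 69237036 and Gucy2f (ENSMUSG00000042282) on chromosome X from 142081160 to 142196931, both on the minus strand. Guca1a (ENSMUSG00000023982) lies on chromosome 17 from 47394558 to 47400584 on the minus strand. Guca1b (ENSMUSG00000023979) lies beside it from 47385393 to 47392967 on the plus strand. The 2 activator genes therefore point at each other, with 1590 bases between their 3′ ends, where a 3′ assay counts; neither overlaps another annotated gene. RefSeq promoter sequences (GRCm38.p6) matched 3 of the 4 genes, Gucy2e, Gucy2f and Guca1a. They are shown because CRX, a homeodomain factor of rods and cones, binds the letters TAATCC. The 250 bases before each start site are printed 5′ to 3′ on the gene's own strand, with TAATCC or its reverse complement GGATTA in capitals.
Gucy2e (chr11:69237023-69237272, minus strand): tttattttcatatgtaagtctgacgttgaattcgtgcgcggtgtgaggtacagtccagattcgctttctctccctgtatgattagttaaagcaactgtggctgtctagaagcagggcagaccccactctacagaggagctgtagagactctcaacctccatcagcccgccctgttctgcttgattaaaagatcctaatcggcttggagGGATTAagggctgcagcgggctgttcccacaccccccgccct
Gucy2f (chrX:142196937-142197186, minus strand): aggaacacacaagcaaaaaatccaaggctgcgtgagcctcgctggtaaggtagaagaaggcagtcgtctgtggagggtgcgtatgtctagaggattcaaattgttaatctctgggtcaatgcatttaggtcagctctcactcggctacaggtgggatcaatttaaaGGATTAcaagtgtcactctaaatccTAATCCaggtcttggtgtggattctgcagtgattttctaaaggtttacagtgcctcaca
Guca1a (chr17:47400607-47400856, minus strand): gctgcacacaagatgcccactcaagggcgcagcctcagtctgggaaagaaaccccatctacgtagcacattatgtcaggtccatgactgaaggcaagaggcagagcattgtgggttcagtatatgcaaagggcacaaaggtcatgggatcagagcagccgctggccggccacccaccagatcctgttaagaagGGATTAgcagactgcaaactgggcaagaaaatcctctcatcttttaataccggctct

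All 3 of these windows held the CRX letters within 100 bases of the start. In Gucy2e the match lay at −42 to −37 on the opposite strand, and in Guca1a at −57 to −52 on the opposite strand. Gucy2f had 2 matches, at −59 to −54 on its own strand and at −84 to −79 on the opposite one. Of 32851 mouse promoter windows of the same length, 6.25% held TAATCC on either strand and 0.295% held it at 2 or more places. TGCTGAC, the core letters of the site of the rod factor NRL, occurred in none of the 3 windows and in 3.81% of all windows. A match describes these letters only, and factor binding was not measured.

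The libraries held 16106 and 5707 cell barcodes with 51681469 and 20952589 UMIs for short-wavelength and white light. After filtering and doublet removal, 14023 and 5436 cells remained, and rods made up 93.3% and 90.6% of them. Cones made up 2.70% and 2.37%, while bipolar, Müller glia and microglia or macrophage gates held 24 to 138 cells each. The libraries shared 26 barcode sequences. All 7 rod markers in rods and all 8 cone markers in cones exceeded 50 CPM, the UMIs of a gene scaled to 1000000 UMIs of the class. Rod markers summed to 7674 and 8157 CPM in cones, against 23513 and 25244 in rods, so rod-marker transcripts were counted in droplets gated as cones. Whether they came from free rod RNA, from doublets or from the cones themselves was not tested. Gnat1, which encodes the rod transducin subunit, served as the measure of background. Its level in cones was 24.1% (23.0–25.3) and 22.9% (21.2–24.7) of its level in rods. The rod factor Nrl stood at 20.8% and 24.3%. Gnat1 and Nrl are both among the 7 rod markers of the gates, so their shares in cones depend in part on the gates. A gene read at or below the Gnat1 share in a class is reported as background there, within this limit.

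Gucy2e was the cyclase that both photoreceptor types carried. In rods it stood at 296 CPM (291–302) under short-wavelength light and 294 (286–302) under white light. In cones it stood at 199.6 (182–218) and 209.8 (180.0–243.1), from 485 and 177 UMIs. Neither pair of libraries differed beyond counting error, and in each library the cones lay below the rods. The cone level was 67.4% (61.4–73.8) and 71.4% (61.1–82.9) of the rod level, 2.79 and 3.11 times the Gnat1 share. Rods therefore exceeded cones 1.48-fold (1.35–1.63) and 1.40-fold (1.21–1.64). Neither interval lay wholly beyond 1.5-fold, the size used here for calling a difference. With every cell thinned to 1000 UMIs, rods over cones was 1.56 and 1.13, the latter below the white-light interval. With the rod profile taken out of the cone level, rods over cones became 2.31 and 2.06 when scaled to the Gnat1 level. Scaled to the Nrl level it became 2.14 and 2.13, all values without an interval. The cone total was not reduced by the RNA taken out, which makes these ratios larger than with a reduced total.

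Gucy2f was the cyclase found in rods, beside Gucy2e, but not above the Gnat1 share in cones. Its level in rods was 373 CPM (367–379) under short-wavelength and 372 (363–382) under white light, the higher of the 2 cyclases in UMIs. In cones it stood at 79.4 (68.6–91.5) and 46.2 (32.9–63.2), from 193 and 39 UMIs. Those values were 21.3% (18.4–24.6) and 12.4% (8.82–17.0) of the rod level, at or below the Gnat1 share in both libraries, and so are read as background. Rods exceeded cones 4.69-fold (4.07–5.44) and 8.06-fold (5.89–11.3). Gucy2f in cones was 0.883 and 0.541 times the Gnat1 share. In the bipolar, Müller glia and microglia or macrophage gates it stood at 0.614 to 1.25 times that share. The Gnat1 share may therefore be an inexact measure of background for this gene too. Under short-wavelength light the cone level of 21.3% was near the Nrl share of 20.8%. Whether cones carry Gucy2f at a low level was not tested.

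Guca1a was the one member of the 4 that was higher in cones. Rods held 1505 CPM (1492–1517) under short-wavelength light and 1719 (1699–1739) under white light. Cones held 2898 (2831–2966) and 3380 (3257–3506). The cone level was 193% (188–197) and 197% (189–204) of the rod level, that is 1.93-fold (1.88–1.97) and 1.97-fold (1.89–2.04) higher. A cone carried 17 Guca1a UMIs at the median under short-wavelength light and 21 under white light, against 4 and 5 in a rod, whose droplets were shallower.

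Guca1b had the reverse order. It stood at 1717 CPM (1704–1731) and 1803 (1783–1824) in rods, the highest of the 4 genes there. Its level in cones was 517 (489–547) and 554.7 (506–607). Rods exceeded cones 3.32-fold (3.14–3.51) and 3.25-fold (2.97–3.57). The cone level was 30.1% (28.5–31.9) and 30.8% (28.0–33.7) of that in rods, 1.25 and 1.34 times the Gnat1 share. The Gnat1 share thus amounted to most of the Guca1b level in cones. In the bipolar, Müller glia and microglia or macrophage gates, however, Guca1b stood at 0.731 to 0.909 times the Gnat1 share. That share may therefore be too high a measure of background for this gene. After subtraction of the Gnat1 share, 103 and 141 CPM remained in cones, too small a remainder to fix the ratio. Rods over cones became 16.7 and 12.8 with Gnat1 as the measure and 10.7 and 15.5 with Nrl. The cone total was again not reduced, which makes these ratios larger.

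Rod against cone, 2 of the 4 genes were called higher in rods (Gucy2f and Guca1b) and 1 higher in cones (Guca1a), the same genes in both libraries. Over all genes with at least 50 UMIs in rods or cones, 7.83% were called higher in rods and 10.5% higher in cones under short-wavelength light, 18.3% in either direction. Under white light the shares were 6.45%, 7.87% and 14.3%. The median ratio of rods over cones was 2.40 and 2.33 over the 4 genes and 1.13 and 1.14 over all genes tested.

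**Figure D1:**
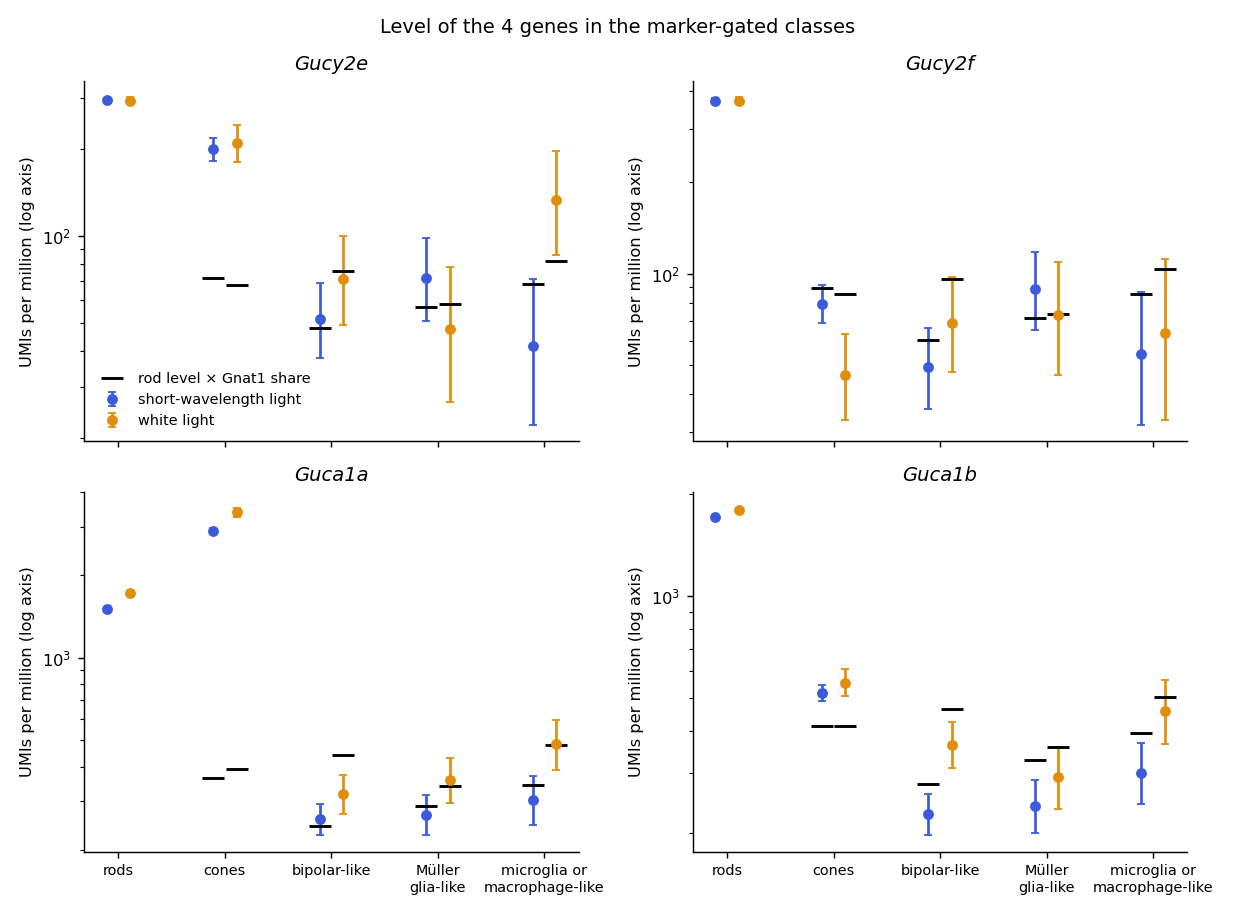
Level of each gene (CPM, log axis) in 5 marker-gated classes under short-wavelength (blue) and white light (orange); bars are 95% counting intervals and black dashes give the rod level times the Gnat1 share of the class. Cone points of Guca1a and Gucy2e lie far above the dashes, those of Guca1b slightly above, and those of Gucy2f at or below them.

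**Figure D2:**
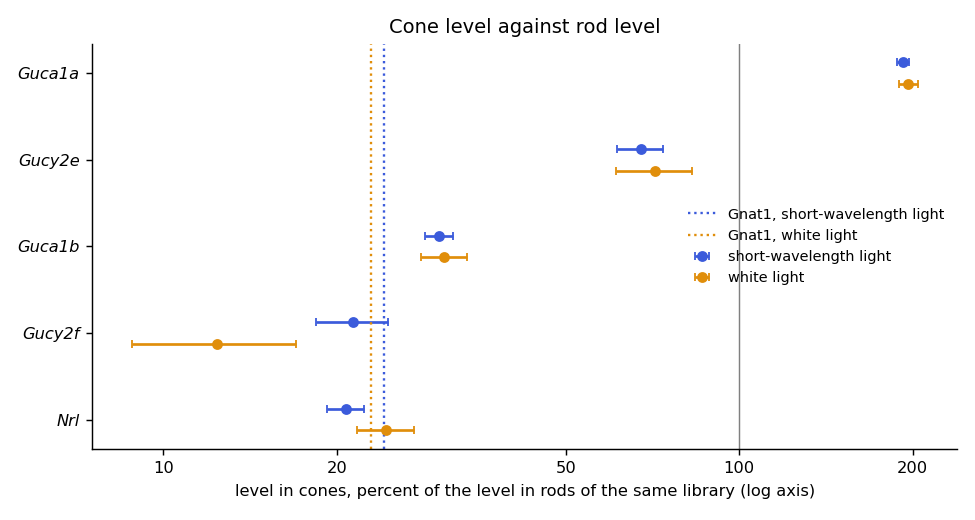
Level in cones as a percent of the level in rods (log axis) for the 4 genes and Nrl in both libraries, with 95% counting intervals; dotted lines mark Gnat1 at 24.1% and 22.9%. Guca1a lies near 200%, at 193% and 197%, and Gucy2f is the only one of the 4 at or below the Gnat1 lines in both libraries.

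Shares of cells with at least 1 UMI mix the level of a gene with the depth of the cell. Rods had a median of 2332 and 2742 UMIs and cones 6387.5 and 6529. Gucy2e was seen in 52.6% and 55.9% of rods and in 64.0% and 65.9% of cones, yet after thinning every cell to 1000 UMIs in 25% and 25.7% of rods and 17.2% and 24.0% of cones. For Gucy2f, 55.8% and 60.1% of rods held a UMI, or 29.2% and 28.8% after thinning. Among cones, 27.0% and 19.4% held one, or 5.31% and 4.80% after thinning. Microglia- or macrophage-like cells, which should lack the gene, held a Gucy2f UMI in 24.4% and 29.2% of cells at median depths of 7581 and 7517 UMIs. In the short-wavelength library the cone share (22.6–31.8) overlapped theirs (12.9–39.5). After thinning, cones (3.27–8.07) overlapped bipolar-like cells (1.504%, 0.183–5.33), Müller glia-like cells (7.41%) and microglia- or macrophage-like cells (12.5%) there. These thinned shares thus did not separate cones from those classes. By level, Gucy2f in cones lay above that in bipolar-like cells in this library, at 79.4 CPM (68.6–91.5) against 49.3 (35.8–66.2). Under white light the thinned cone interval was 1.78–10.2, beside 5.08% in bipolar-like and 7.89% in Müller glia-like cells. It was 0 of 23 in microglia- or macrophage-like cells, with an upper bound of 14.8%. Guca1a was found in 95% and 96.1% of rods and 98.9% and 97.7% of cones, or in 75.9% and 79.7% of rods and 90.5% and 95.2% of cones after thinning. Guca1b was found in 96.8% and 97.0% of rods and 82.8% and 81.4% of cones, falling to 80.5% and 81.9% of rods and 38.2% and 37.6% of cones after thinning. Thinning left out 4 and 230 rods and 1 and 4 cones that were shallower than 1000 UMIs.

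The cyclases were outnumbered by the activators in both cell types. A 3′ UMI library counts each captured molecule once, so these are ratios of UMIs, and capture may differ between transcripts. Whether intronic reads were counted is not given. The genes span 115772 bases (Gucy2f), 18920 (Gucy2e), 7575 (Guca1b) and 6027 (Guca1a). The part of gene length in these ratios was not tested. In rods the sum of Gucy2e and Gucy2f over the sum of Guca1a and Guca1b was 0.208 (0.205–0.210) under short-wavelength light and 0.189 (0.185–0.193) under white light. In cones it was 0.0817 (0.0755–0.0884) and 0.0651 (0.0564–0.0747). The rod ratio was 2.54 times (2.35–2.75) and 2.91 times (2.53–3.34) the cone ratio. With the rod profile scaled to Gnat1 taken out of cones and Gucy2f, then below 0, set to 0, the cone ratio was 0.0486 and 0.0455.

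Within each pair, the gene with more UMIs differed between the cell types. Gucy2e over Gucy2f was 0.795 (0.775–0.815) and 0.789 (0.760–0.819) in rods and 2.51 (2.12–2.98) and 4.54 (3.19–6.60) in cones. Gucy2f in cones was read as background, so the denominator of the cone ratio may be counted from background. The cone ratio may then not be that of the cones' own transcripts. Guca1a over Guca1b was 0.876 and 0.953 in rods and 5.60 (5.27–5.95) and 6.09 (5.52–6.73) in cones. The summed level of the 4 genes was nearly the same in both types, 3891 and 4188 CPM in rods and 3694 and 4191 in cones. What differed was its makeup: Guca1a supplied 38.7% and 41.0% of these UMIs in rods and 78.4% and 80.7% in cones. Guca1b supplied 44.1% and 43.1% in rods and 14.0% and 13.2% in cones, while Gucy2f supplied 9.58% and 8.89% against 2.15% and 1.10%. The share of Gucy2e differed least in percentage points, from 7.61% and 7.02% in rods to 5.40% and 5.01% in cones.

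Cones were also divided by the share of S opsin (Opn1sw) among their opsin UMIs. Cones with an S-opsin share of 90% or more (70 and 33 cells) held 3660 (3470–3856) and 4822 (4481–5181) CPM of Guca1a. Those in between (170 and 49 cells) held 3154 and 3297, and those at 10% or less (131 and 43 cells) held 2253 (2155–2355) and 2789 (2607–2980). Guca1a was thus higher in S-opsin than in M-opsin cones in both libraries, with no overlap of their intervals. Guca1b was 706, 487 and 478 in the same order under short-wavelength light and 896, 544 and 386 under white light. Gucy2e was level across the 3 kinds, at 214, 199 and 198 and at 214, 226 and 185. Gnat1 stood at 716, 803 and 764 CPM in this order under short-wavelength light and at 1019, 826 and 686 under white light, where it moved with the activators. The S-opsin cones were the shallowest, at median depths of 5294.5 and 3146 UMIs. The part of free RNA and depth in these differences was not tested. The ratio of cyclases to activators was 0.0659, 0.0763 and 0.103 from S-opsin to M-opsin cones under short-wavelength light and 0.0499, 0.0680 and 0.0734 under white light.

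**Figure D3:**
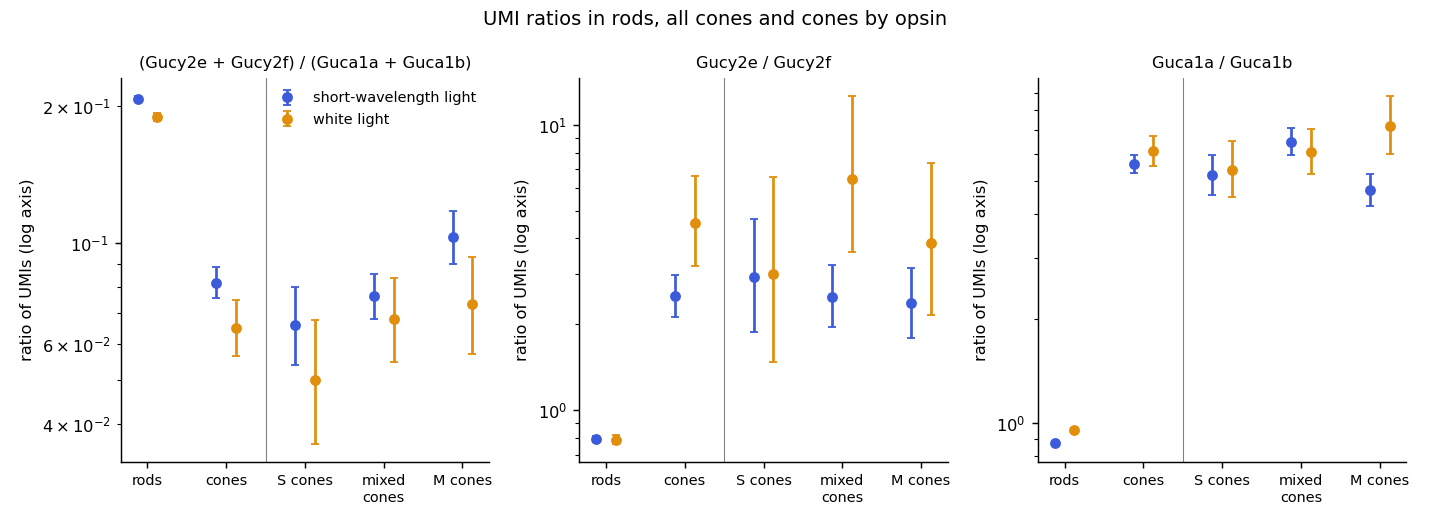
Ratios of UMIs (log axis) in rods, in all cones and in cones divided by the S-opsin share of their opsin UMIs (S, 90% or more; M, 10% or less; mixed, between), with 95% counting intervals, short-wavelength light in blue and white light in orange. Rods lie above cones for cyclases over activators and below them for Gucy2e over Gucy2f and for Guca1a over Guca1b.

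Outside photoreceptors the 4 genes stood at 0.612 to 1.62 times the Gnat1 share. In bipolar-like cells (138 and 59) Gucy2e was at 17.4% and 24.2% of its rod level, Gucy2f at 13.2% and 18.5%, Guca1a at 17.1% and 18.6% and Guca1b at 13.2% and 20.2%, beside 16.2% and 25.7% for Gnat1. In Müller glia-like cells (88 and 39) they ranged from 14.0% to 24.2% and from 16.1% to 20.8%, beside 19.1% and 19.8% for Gnat1. In microglia- or macrophage-like cells (45 and 24) they ranged from 14.0% to 20.2% beside 22.9% for Gnat1 under short-wavelength light, and 3 of the 4 ranged from 17.1% to 28.2% beside 27.9% under white light. Gucy2e was the exception in the white-light library, at 133 CPM or 45.2% (29.2–66.9) of its rod level. That value rested on 25 UMIs, 19 of them in 3 of the 24 cells, and was 42.2 (15.5–91.9) without those 3 cells. From high to low, Gucy2e ran rods, then cones, then the other 3 classes, apart from that one value. For Gucy2f, rods stood alone, and in each library the intervals of cones overlapped those of the other classes except for bipolar-like cells under short-wavelength light. Guca1a ran cones, rods, then the rest, and Guca1b ran rods, cones, then the rest, with microglia- or macrophage-like cells overlapping cones under white light (457, 366–565, against 554.7, 506–607). The cyclase-to-activator ratio was 0.208 (0.164–0.262) and 0.205 (0.155–0.269) in bipolar-like cells. In Müller glia-like cells it was 0.316 (0.245–0.405) and 0.185 (0.128–0.263), the former wholly above the rod interval (0.205–0.210). In microglia- or macrophage-like cells it was 0.159 (0.104–0.234) and 0.209 (0.143–0.299).

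Light was compared next. Under short-wavelength light, cyclase transcripts in rods stood at the white-light level: Gucy2e at a ratio of 1.01 (0.974–1.04) and Gucy2f at 1.0 (0.971–1.03). Guca1a was lower, at 0.875 (0.863–0.888), and Guca1b slightly lower, at 0.952 (0.939–0.965). In cones the ratios were 0.952 (0.80–1.14) for Gucy2e, 0.857 (0.821–0.896) for Guca1a and 0.933 (0.838–1.04) for Guca1b. Guca1a was thus lower in the short-wavelength library in both cell types beyond counting error, and Gucy2e and Guca1b in cones were not. The cone ratio of Gucy2f was 1.72 (1.21–2.49), from 193 and 39 UMIs at background level, and 0.947 after thinning to 1000 UMIs. None of the 4 genes was called between lights in rods, where 0.295% of 12199 genes tested were called, 0.156% higher and 0.139% lower under short-wavelength light. None was called in cones, where 0.125% of 7195 genes were, 0.0834% higher and 0.0417% lower. The median light ratio over the 4 genes was 0.976 in rods and 0.942 in cones, beside 1.01 and 1.02 over all genes tested. In rods 10.3% of genes had a lower light ratio than Guca1a.

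Other photoreceptor transcripts differed in their light ratio in rods. Gnat1 stood at 0.908 (0.899–0.917), Nrl at 0.962 and Pde6b at 1.02, and Malat1, a long noncoding RNA kept in the nucleus, stood at 1.11 (1.10–1.11). The share of Malat1 among UMIs also moved with the 4 genes from rod to rod. When rods of both libraries were split into 5 parts at the same Malat1 shares, the lowest part held 2175 of 13086 rods under short-wavelength light and 1427 of 4923 under white light. From the lowest to the highest part, Guca1a went from 1986 to 1341 and from 2249 to 1489 CPM. Guca1b went from 2412 to 1522 and from 2449 to 1524, and Gucy2e from 327 to 287 and from 321 to 264. Gucy2f had the opposite order between the lowest part and the next, from 261 to 389 and from 311 to 374. The ratio of cyclases to activators accordingly was lowest in the rods with least Malat1, at 0.134 and 0.135, and lay between 0.199 and 0.235 in the other parts. Split into 4 parts by mitochondrial share, rods went from 0.240 to 0.150 and from 0.236 to 0.138 as that share rose. Split into 4 parts by UMIs per rod, they went from 0.164 in the shallowest to 0.226 in the deepest under short-wavelength light and from 0.137 to 0.199 under white light. The part of Malat1, mitochondrial RNA and depth in the ratio was not tested.

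Within these parts the light ratio of Guca1a was 0.883, 0.929, 0.932, 0.965 and 0.901 from the lowest to the highest share, with every interval below 1. Guca1b lay between 0.985 and 1.03 in the 5 parts, so its lower level over all rods was not seen among rods of like Malat1 share. Gucy2e lay between 0.990 and 1.09. Gucy2f lay between 0.947 and 1.04 in 4 parts and at 0.837 (0.777–0.902) in the part with least Malat1. The ratio of Guca1a to Guca1b was lower under short-wavelength light in all 5 parts, by factors of 0.897 to 0.934, and by 0.919 (0.901–0.938) over all rods. In cones the same factor was 0.919 (0.819–1.03). The cyclase-to-activator ratio over all rods was 1.10 times (1.07–1.12) as high under short-wavelength light, but between 0.993 and 1.07 times within the Malat1 parts, where 1 of the 5 intervals lay above 1. In cones it was 1.26 times (1.07–1.47) as high, with Gucy2f at background level. Differences of this size between single libraries cannot be told apart from differences between preparations.

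**Figure D4:**
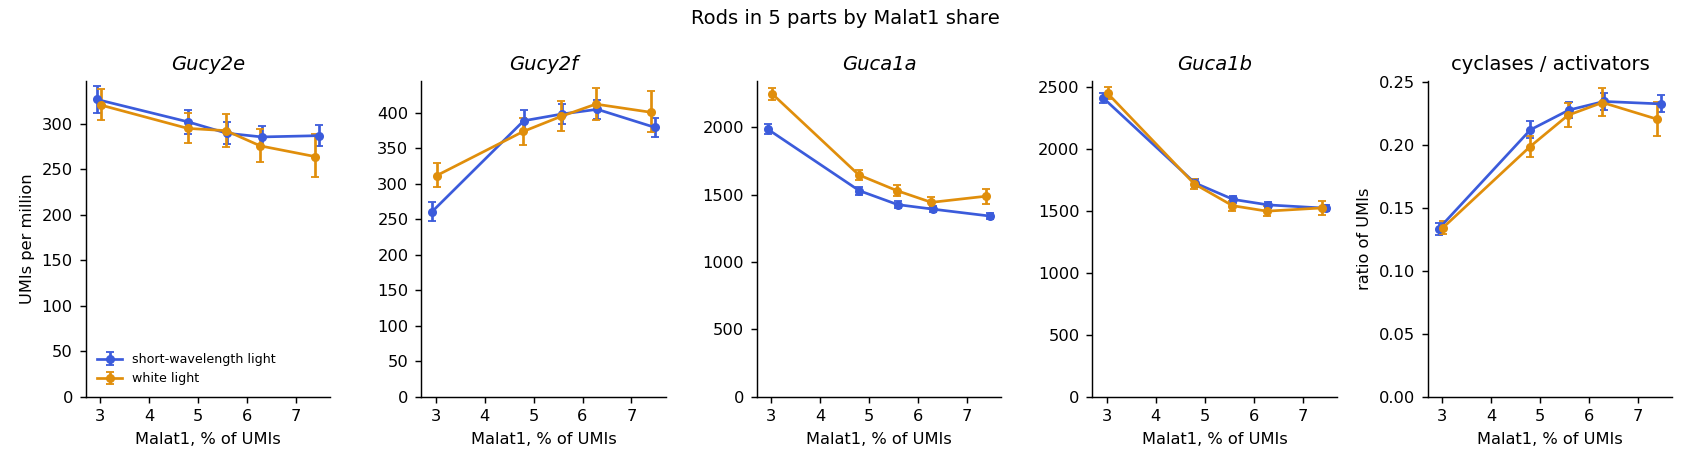
Level of each gene (CPM) and the ratio of cyclases to activators in rods split into 5 parts by the share of Malat1 among their UMIs (horizontal axis, percent), with 95% counting intervals, short-wavelength light in blue and white light in orange. The ratio is lowest, at 0.134 and 0.135, in the part with least Malat1, and Guca1a is lower under short-wavelength light in every part.

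**Figure D5:**
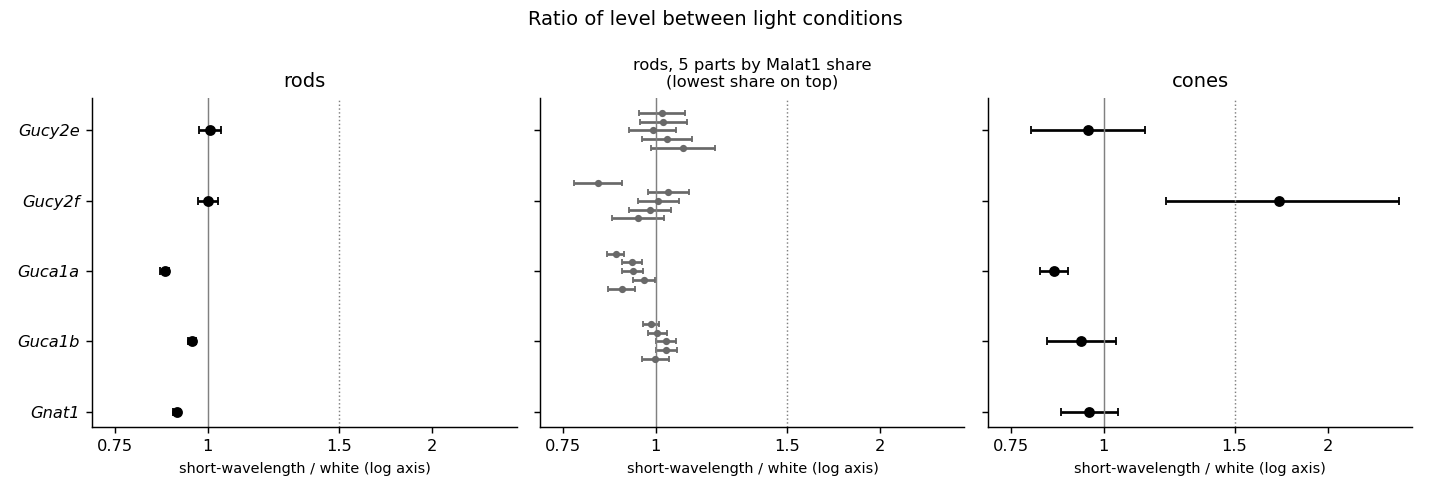
Ratio of the level under short-wavelength light to that under white light (log axis) in rods, in the 5 Malat1 parts of rods and in cones, with 95% counting intervals and the 1.5-fold line dotted; Gnat1 is shown in rods and cones only. Guca1a lies below 1 in rods (0.875), in each of the 5 parts and in cones (0.857), and no interval of the 4 genes lies wholly beyond 1.5-fold.

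Genes that act around the supply and turnover of cyclic GMP were set beside the members. Of 9 genes of cyclic GMP supply and turnover, all tested, 1 was called higher in rods and 4 higher in cones in both libraries, beside 7.83% and 10.5% of all genes tested under short-wavelength light and 6.45% and 7.87% under white light. Pde6b, a catalytic subunit of rod phosphodiesterase, was 5.53-fold higher in rods in both libraries. Its cone level was 0.181 of the rod level in both, below the Gnat1 share, and so is read as background. Guk1, guanylate kinase, was higher in cones, with a ratio of rods over cones of 0.294 in both. Nme1 (0.216 and 0.187) and Nme2 (0.179 and 0.215), nucleoside diphosphate kinases, and Pde6d (0.496 and 0.450), a prenyl-binding protein that carries lipid-modified proteins to the outer segment, were also higher in cones. Rd3, which binds and inhibits the guanylate cyclases, stood at 186 and 188 CPM in rods and 253 and 252 in cones, a ratio of 0.733 (0.675–0.797) and 0.745 (0.648–0.860) that was not called. The light ratio of Rd3 was 0.987 (0.946–1.03) in rods and 1.0 (0.857–1.18) in cones.

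In the calcium feedback and channel list, 8 genes are reported and all were tested. Under each light 2 were higher in rods, and 4 were higher in cones under short-wavelength and 2 under white light. Over all genes tested, 7.83% were called higher in rods and 10.5% higher in cones under short-wavelength light. Under white light these shares were 6.45% and 7.87%. Cngb1 (4.80 and 6.19), the rod channel subunit, and Slc24a1 (4.40 and 5.58), the rod sodium-calcium exchanger, were the rod genes. In cones they stood at 0.208 and 0.161 and at 0.227 and 0.179 of the rod level. Both lay below the Gnat1 share and so are read as background there. Their cone counterparts Cngb3 (0.00484 and 0.00416) and Slc24a2 (0.00834 and 0.00614) were higher in cones under both lights. Among 8 other guanylate cyclase genes, only Gucy1a1 reached 50 UMIs, with 85 UMIs or 2.26 CPM in rods under short-wavelength light and no call, so Gucy2e and Gucy2f supplied nearly all cyclase UMIs counted in rods. Gucy2d, an olfactory cyclase in mice, had 0 UMIs in rods and cones of both libraries. Among 9 relatives of the activators in the neuronal calcium sensor family, 3 were tested under short-wavelength light and 2 under white light. Of these, 2 and 1 were called higher in rods, beside 7.83% and 6.45% of all genes tested. Kcnip4, a potassium channel interacting protein, was called in both libraries, with ratios of 3.35 and 3.07. No gene of these lists was called between lights in rods or cones, where 0.295% and 0.125% of all genes tested were called.

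The genes with the most similar pattern were found by Pearson's r of log2(CPM + 5) over 10 profiles, 5 classes in each of 2 libraries, among 10607 genes. These profiles share their libraries and free RNA, and r is a description only. Gucy2e was most like Otud7b (0.991), Grk1 (0.988), which encodes a receptor kinase of photoreceptors, and Rpgrip1 (0.986), a protein of the photoreceptor cilium. Gucy2f was most like Ric8b (0.981), Reep6 (0.979), a rod membrane-trafficking protein, and Chst3 (0.976). Guca1a was most like Aipl1 (0.990), a chaperone of phosphodiesterase, A930001M01Rik (0.989) and Rbp3 (0.987), the interphotoreceptor retinoid-binding protein. Guca1b was most like Ybx3 (0.986), Camsap1 (0.985) and Bbs9 (0.982). Among the 4 members themselves, r ran from 0.370 between Gucy2f and Guca1a to 0.884 between Gucy2e and Guca1b.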

How the data were processed

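Gene-by-barcode matrices of 1 retina library per light condition were used as the authors deposited them. Per the file headers the values are raw UMI counts written by Cell Ranger 9.0.0. Seurat, edgeR and the build mm10 are named in the submitters' processing notes, without versions. The annotation used for counting, and whether intronic reads were counted, are not given in the sources used here.

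A barcode stayed in when it had 300 genes or more and no more than 20% of its UMIs from mitochondrial genes. The barcodes with the highest Scrublet scores were removed as doublets, 0.8% of barcodes for each 1000 barcodes, which took 12.9% of barcodes under short-wavelength and 4.55% under white light. The automatic threshold would have marked 15.8% and 0.0176%.

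Rods needed at least 10 rod-marker UMIs with cone markers at most 10% of rod plus cone UMIs; cones needed at least 10 UMIs of at least 4 cone genes and at least 50%. Both were left out where another marker list reached 5 UMIs and 0.3% of the droplet. Other classes needed 10 UMIs of 3 genes and 0.5%. UMIs were summed per class and divided by the class total. Levels have exact Poisson intervals, ratios exact conditional binomial intervals, shares exact Clopper-Pearson intervals, and ratios of ratios log-normal intervals, all at 95%. A gene with at least 50 UMIs was called where its interval lay wholly beyond 1.5-fold. The ratio script was tested on simulated data.

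Named genes are the 4 members, the 3 genes most like each, listed pathway genes called between rods and cones in both libraries or between lights, and Rd3. Gucy1a1, Gucy2d, Malat1 and gate markers such as Gnat1 and Nrl are also named, outside this rule. The members and lists were chosen with earlier results of these data known. The 7 rod markers included Gnat1, Gngt1, Nrl, Nr2e3, Cnga1 and Pde6a; cone markers were Arr3, Gnat2, Pde6h, Pde6c, Gngt2, Opn1sw, Opn1mw and Cnga3. Alternatives were stricter and looser gates, gates on fewer markers, other doublet, depth and cell filters, other scalings, Malat1 parts, free-RNA subtraction and other minimum counts. Tools were Python 3.11.15, scanpy 1.11.5, scipy 1.17.1 and, for TMM factors, edgeR 4.0.16 in R 4.3.3. Free rod RNA was measured by Gnat1, chosen after seeing the data in place of a planned measure; that measure and 1 gene of the calcium list are not reported here.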

Additional observations from a re-analysis of the deposited data

Results flagged for a closer look

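A signal of the 4 genes appeared in droplets that no comparison above uses. In the white-light library, 57 droplets passed the haemoglobin gate (7 in the short-wavelength library). They held Gucy2e at 335 CPM, Gucy2f at 223, Guca1a at 3105 and Guca1b at 2750, each above 20.9 CPM, the level of 3 UMIs there. Gnat1 stood at 5297 CPM there, 1.49 times its level in rods, against 1.14 times for Gucy2e, 0.600 for Gucy2f, 1.81 for Guca1a and 1.52 for Guca1b. Gucy2f and Guca1a thus did not keep the ratio to Gnat1 that they had in rods beyond counting error, and the source of these UMIs was not tested.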

How the results depend on the processing

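No called value changed direction under the alternatives run; 4 uncalled light ratios crossed 1, Gucy2f in cones (0.947 to 1.79) and, in rods, Gucy2e (0.982 to 1.02), Gucy2f (0.982 to 1.02) and Guca1b (0.938 to 1.0). Of the values recomputed, 91 of 100 light ratios, 76 of 109 rod-to-cone ratios and 139 of 174 ratios between the 4 genes stayed within the counting interval of the reported value. Cyclases over activators became 0.196 (rods, short-wavelength), 0.179 (rods, white) and 0.0637 (cones, short-wavelength) when cells were thinned to 1000 UMIs. The rod ratio under short-wavelength light was 0.213 in cells of 1500 UMIs or more. Cone values less free RNA, alternatives chosen after seeing the data, were 0.0486 and 0.0455 by the Gnat1 level and 0.0510 and 0.0449 by the Nrl level, with Gucy2f set to 0 where it came out negative (both libraries by Gnat1, white light by Nrl). Guca1a over Guca1b in cones was then 24.6 and 21.2 or 16.1 and 25.5, on a small Guca1b remainder with no interval. Genes called between lights numbered 36 in rods and 9 in cones, but 70 and 23 with a minimum of 20 UMIs and 23 and 3 with a minimum of 100, which tests other numbers of genes. The light ratio of Guca1a in rods ranged from 0.863 (median-of-ratios factors) to 0.929 (median over Malat1 parts). With 39 Gucy2f UMIs in white-light cones and 24 to 138 cells in the other classes, depth limits these values. The alternative for microglia- or macrophage-like cells was chosen after seeing the data. No paired analysis was possible because each light condition had 1 library, and for the same reason no replicate could be left out.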
